A study of Mus musculus with 20 samples.

Results

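The comparison described here set 6 microarrays of mouse cells carrying inducible Blimp1 or Prdm14 against 4 arrays of cells carrying neither, all taken on day 1 of aggregation with doxycycline. These 10 arrays are part of a series of 20, which crossed 5 male embryonic stem cell lines (strain C57BL/6;129) with 2 stages, 2 arrays in each of the 10 groups. Every line carried the reporters Blimp1-mVenus and stella-ECFP and the doxycycline-dependent activator Rosa26-rtTA. The Parental clone carried nothing more. Line A (clone #8-2) added V5-Tfap2c, line B (clone #2-4) Avi-Blimp1, line P14 (clone #7-109) 3xFLAG-Prdm14, and line BP14A (clone #3-3) all 3 transgenes, each behind a tetO promoter in a piggyBac vector. Cells were differentiated for 36 h into EpiLCs, epiblast-like cells that stand for the early postimplantation epiblast in culture, which were sampled as the first stage. They were then aggregated at 2000 cells per well for 24 h with 1.5 μg/ml doxycycline in GK15 medium, the Parental clone included, and sampled as day 1. Because 1 clone stands for each line, what a transgene did and what is peculiar to its clone cannot be told apart. Aggregates kept without doxycycline were not analysed here.

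A gene was taken as a member when its mean in each of BP14A, B and P14 lay on the same side of both the Parental mean and the A mean on day 1. Of 14010 genes tested, 2368 lay above both controls in all 3 lines (16.9%) and 2438 below (17.4% with the genes left out counted in), 4806 in all, after leaving out 8 genes, namely Y-linked ones with Erdr1 and Mid1. The lines differed widely in the Y-linked Eif2s3y, for example, which averaged 0.98 in B and 2.28 in P14 on day 1, against 6.50 in BP14A, 7.26 in A and 9.27 in the Parental clone. Most members differed by little, and the account below turns on those past a limit of size and of error. All values are on the deposited log2 scale, on which a difference of 1 is a doubling, and values below 3.95 lay under the level used to filter dim probes.

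Blimp1, the protein of Prdm1, and Prdm14 are zinc-finger transcriptional regulators needed for the founding of mouse primordial germ cells, and Tfap2c (AP2γ) acts with them. In the embryo a few epiblast cells under BMP4 signalling switch these factors on, repress the somatic programme of their neighbours, lower the de novo DNA methylation machinery and take up pluripotency genes again. The design asks which part of that switch each factor can start without added cytokines. The comparison asks what the lines with Blimp1 alone, Prdm14 alone and all 3 factors had in common.

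The pooled difference, the mean of the 3 line means minus the mean of both control means, was estimated for every gene by limma. A gene was called at a Benjamini-Hochberg adjusted p under 0.05 with a difference of at least 1. Over all genes 237 were called higher (1.69% of 14010) and 280 lower (2.0%). Of these, 202 higher and 206 lower genes had all 3 lines on the same side of both controls. A stricter set, named shared genes here, had to be called in each of the 6 single comparisons of 1 line with 1 control. It held 48 higher genes (0.343% of 14010) and 29 lower genes (0.207%), 77 in all. Higher shared genes had a median pooled difference of 2.22 (from 1.16 to 4.52), and lower ones −2.12 (from −4.26 to −1.11), against −0.006 over all genes. The rule fixed these directions. The limits of size and error also largely fixed that the 6 arrays did not overlap the 4 control arrays in any of the 77. The share of all genes without overlap was not counted, so this is no result about the members. Just inside the limit of size were Plac8, Lats2 and Plpp2, whose smallest of 6 differences were 1.0, 1.01 and 1.01. Cpsf4l, Atp11a and Pkdcc, at 0.995 each, were just outside.

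The limma p-values measure the spread between duplicate arrays of a clone. With the 5 line means as the samples, 3 lines against 2, the calls on the same side went from 202 to 0 higher and from 206 to 1 lower, Has2 at adjusted p = 0.036, while 76 of the 77 shared genes had an unadjusted p under 0.05, as did 1846 of all genes. With line as a random block, 102 higher and 84 lower genes were called, 75 of the 77 shared genes among them. Both fits reuse the day 1 arrays by which the 77 were selected. Their counts of 76 and 75 were thus largely fixed beforehand and lend the shared genes no support. With each day 1 array left out in turn, between 59 and 74 of the 77 stayed shared, and some genes described below, Klf2, Wnt8a, Lrrc34, Slco4c1, Dmrt1 and Mcrip2 among them, lost that standing in at least 1 such fit.

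Among the factors' own genes, Tfap2c gave the largest of the higher differences among shared genes. It read 6.38 and 6.29 on the Parental arrays, 5.80 and 6.08 in A, 11.55 and 11.58 in BP14A, 9.38 and 9.81 in B, and 10.70 and 10.91 in P14. The 3 lines thus lay well above both controls, with BP14A highest and B lowest. The pooled difference was 4.52 ± 0.08 (SE, adjusted p = 1.3e-11), and 4.59 and 4.18 at its other probe sets. B and P14 carry no Tfap2c transgene. Line A does, and its reading was no higher than that of the Parental clone, so these probe sets give no sign of the transgene in A. Prdm1 read 4.90 and 5.01 in the Parental clone, 4.84 and 5.18 in A, 8.63 and 8.71 in BP14A, 6.25 and 6.47 in B, and 7.23 and 7.39 in P14. It was higher in P14, which has no Blimp1 transgene, than in B, by 0.95 (adjusted p = 0.000155), which lies below the limit of size. Its pooled difference was 2.46 ± 0.08 (adjusted p = 1.19e-09). Prdm14 was dim everywhere, with day 1 means from 3.50 to 4.04 and a pooled difference of 0.13 ± 0.74 (adjusted p = 0.92). None of these probe sets was shown to read a transgene, and they check no line's label.

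Of the early germ cell genes tested, 10 of 16 lay above both controls in all 3 lines, and 3 were shared. Over all genes 16.9% lay above both controls and 17.4% below, and 0.343% were shared higher and 0.207% shared lower. With 1.69% called higher and 2.0% lower in the pooled contrast, these shares stand beside the counts of each list below. Dppa3 (stella), a chromatin protein that protects DNA methylation in the early embryo and marks founding germ cells, read 6.23 and 5.97 in the Parental clone, 5.61 and 6.44 in A, 11.41 and 11.51 in BP14A, 8.31 and 9.25 in B, and 9.67 and 9.82 in P14. The order BP14A, P14, B held on every array. The pooled difference was 3.93 ± 0.18 (adjusted p = 9.59e-09). Ifitm3, an interferon-induced membrane protein found on early germ cells, read 8.30 and 8.12, 7.84 and 7.96 in the Parental clone and A, and 11.67 and 11.68, 9.87 and 10.13, and 11.25 and 11.37 in BP14A, B and P14. Ifitm1, its relative, had another order: 10.74 and 11.14 in B stood above 10.39 and 10.33 in BP14A and 9.54 and 9.47 in P14, with 7.70 and 7.56 in the Parental clone and 7.09 and 7.37 in A. The pooled differences of Ifitm3 and Ifitm1 were 2.94 ± 0.07 (adjusted p = 8.1e-11) and 2.84 ± 0.08 (adjusted p = 4.02e-10). Of 16 early germ cell genes tested out of 20 listed, 11 were called higher and 1 lower in the pooled contrast (median 1.16), 9 of the higher ones with all lines on the same side and 3 as shared genes.

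The 6 early germ cell genes that were higher on the same side but not shared, named after their values were seen, fell short in different ways. Kit, the receptor for a germ cell survival factor, averaged 6.74 and 7.00 in the Parental clone and A, and 8.77, 7.78 and 8.00 in BP14A, B and P14, so its differences from line A were 0.77 in B and 0.99 in P14, below the limit of size. Ifitm2, the RNA-binding gene Elavl2 and the piRNA-pathway gene Tdrd5 had small pooled differences of 1.08, 1.16 and 1.10. Rhox6 and Rhox9, X-linked homeobox genes, stood at 5.50 and 6.52 in BP14A, but at 2.64 and 3.70 in B and 2.73 and 4.28 in P14. Itgb3 and Lifr were called higher without all lines on the same side. Lifr, the receptor for LIF, was higher in BP14A and P14 at 9.95 and 9.66 but 6.96 in B, below both controls. Pdpn, a surface glycoprotein, was the called lower gene, at 8.31 in BP14A and 7.85 in P14, while B at 10.49 lay slightly above both controls. Later germ cell and meiosis genes were mostly below the limit: 1 of 15 was called, Hormad1 at 1.38 ± 0.19 (adjusted p = 0.000157), with a list median of 0.32.

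Naive pluripotency genes, typical of stem cells held in inhibitors of differentiation, gave 4 shared genes. Tcl1, a coactivator of AKT kinase, read 3.06 and 3.08 in the Parental clone, 2.57 and 3.16 in A, 8.13 and 8.16 in BP14A, 5.11 and 5.71 in B, and 7.78 and 7.61 in P14. The controls lay below the filter level, so the size of the pooled difference, 4.12 ± 0.15 (adjusted p = 1.68e-09), is approximate. Fbxo15, an F-box gene switched on by Oct4 and Sox2, was the most even of the large differences. Its 6 line arrays lay between 9.68 and 10.01, against 6.75 and 6.78 in the Parental clone and 5.87 and 6.04 in A, a pooled difference of 3.42 ± 0.10 (adjusted p = 3.01e-10). Tfcp2l1 and Klf2, transcription factors of the naive network, differed by 2.68 ± 0.18 and 1.95 ± 0.18 (adjusted p = 3.1e-07 and 5.01e-06). Klf2 was already at 9.68 and 9.18 in the controls, and reached 11.63 in BP14A, 10.84 in B and 11.67 in P14.

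Across 18 naive genes tested, 8 were called higher and 1 lower (median 0.70). Nr0b1 (Dax1), Klf5 and Zfp42 were higher on the same side without being shared, since B stayed near the controls. Nr0b1, for instance, averaged 9.86 in BP14A and 10.56 in P14, but 6.46 in B against 6.19 and 5.70. Socs3, a feedback inhibitor of LIF signalling, was at 2.90 and 2.31 in BP14A and P14 and at 5.86 in B, above the controls at 5.22 and 5.21. Of 14 core pluripotency genes 4 were called higher and 0 lower (median 0.53). Sox2, a partner of Oct4, was the shared gene among them. It read 10.63 and 10.78 in the Parental clone, 10.52 and 10.41 in A, 12.52 and 12.57 in BP14A, 11.80 and 11.86 in B, and 12.46 and 12.53 in P14. The groups were far apart for an already bright gene, with a pooled difference of 1.70 ± 0.06 (adjusted p = 9.64e-10). Esrrb, Zfp296 and Gdf3 differed by 1.91, 1.75 and 1.26 but were not called in B against both controls.

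Nearly all called primed epiblast genes were lower. Of 19 tested, 9 were called lower and 1 higher (median −0.99), 7 of the lower ones on the same side. Pim2, a serine/threonine kinase, read 11.99 and 11.96 in the Parental clone, 11.90 and 11.99 in A, 6.88 and 6.94 in BP14A, 10.66 and 10.47 in B, and 7.67 and 7.59 in P14. All 6 arrays lay below the controls, B by far the least. Its pooled difference was −3.59 ± 0.06 (adjusted p = 1.23e-11). Foxd3, a forkhead repressor of the epiblast, had B in the middle: 8.01 and 8.13 in the Parental clone, 8.18 and 8.00 in A, 5.10 and 5.03 in BP14A, 6.12 and 5.90 in B, and 6.87 and 6.89 in P14. Its pooled difference was −2.10 ± 0.07 (adjusted p = 1.23e-09). Wnt8a, a Wnt ligand of the posterior epiblast, stood at 6.14 and 6.17 in the controls and with its mean below the filter level in each of the 3 lines. Lef1, a DNA-binding partner of β-catenin, was the listed gene that was higher, at 7.42 and 7.40 in the controls and 9.44, 9.05 and 9.60 in BP14A, B and P14, a difference of 1.96 ± 0.09 (adjusted p = 1.19e-08).

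Several epiblast genes called in the pooled contrast were not shared. Pou3f1 (Oct6) averaged 11.68 and 11.50 in the controls, 6.80 in BP14A and 8.37 in P14, but 11.07 in B. The de novo DNA methyltransferase Dnmt3b went from 13.21 and 13.22 to 9.87 in BP14A and 11.14 in P14, with B at 12.98. Dnmt3a had the opposite exception, at 8.60 in B and 9.52 in BP14A but 10.96 in P14, against 10.79 in each control. Among 10 DNA methylation genes tested, these 2 were called lower and Gadd45a higher, by 1.02 (median of the list 0.24), and none was a shared gene.

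Among signalling genes, the Nodal and activin pathway, which maintains the primed epiblast, was lower at its ligand and at an activin antagonist. Nodal read 10.51 and 10.22 in the Parental clone, 10.59 and 10.49 in A, 8.81 and 8.63 in BP14A, 7.30 and 7.68 in B, and 8.55 and 8.51 in P14. B was lowest here, and the pooled difference was −2.21 ± 0.09 (adjusted p = 4.01e-09), −2.19 at its other probe set. Fst, which encodes the activin-binding protein follistatin, read 9.80 and 9.23 in the Parental clone, 9.59 and 9.73 in A, 5.81 and 5.93 in BP14A, 6.71 and 6.84 in B, and 6.14 and 6.07 in P14. That is a pooled difference of −3.34 ± 0.14 (adjusted p = 5.13e-09). Of 13 Nodal pathway genes tested, 3 were called lower and 1, Gdf3, higher (median 0.05). The coreceptor gene Tdgf1 was lowest in B, at 5.87, with 11.62 in BP14A and 12.18 in P14 against 12.13 and 12.20 in the controls, and was not on the same side. BP14A lay below the controls by less than the limit of size.

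In the FGF and ERK pathway 2 of 18 genes were called higher and 2 lower (median 0.08), and both higher ones were shared. Dusp4, a phosphatase that inactivates ERK, read 6.46 and 6.57 in the Parental clone, 5.65 and 6.31 in A, 9.96 and 9.80 in BP14A, 8.21 and 9.05 in B, and 8.63 and 9.25 in P14. It was higher by 2.90 ± 0.18 (adjusted p = 1.49e-07). The receptor gene Fgfr2 had nearly equal lines, at 8.08, 7.60 and 7.68 in BP14A, B and P14 and 6.22 and 6.24 in the controls, a difference of 1.55 ± 0.08 (adjusted p = 3.41e-08), and 0.78 at its other probe set. The ligand genes Fgf8 and Fgf15 differed by −1.74 and −1.15, without being shared.

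BMP and WNT genes each had members on both sides. Id4, an inhibitor of helix-loop-helix factors, averaged 5.03 and 4.72 in the controls, 8.90 in BP14A, 6.58 in B and 8.16 in P14, a pooled difference of 3.01 ± 0.15 (adjusted p = 1.64e-08). Of 14 BMP pathway genes, 3 were called higher and 1 lower (median −0.05), all 4 on the same side: Id2 and Bmp7 differed by 1.49 and 1.17, and the inhibitory Smad6 by −1.76. Of 12 WNT genes, Lef1 was called higher and Wnt8a and Wnt5b lower (median −0.03), and all 3 were shared. Wnt5b, a ligand, averaged 6.36 and 6.11 in the controls and 3.74, 4.33 and 3.88 in BP14A, B and P14. Wnt8a and Wnt5b differed by −2.98 ± 0.30 (adjusted p = 1.04e-05) and −2.25 ± 0.14 (adjusted p = 1.95e-07), and since most line means of both lay below the filter level, these sizes are approximate.

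Cell surface and matrix genes were among the largest lower differences. Pcdh8, a protocadherin of the streak and paraxial mesoderm, read 6.84 and 7.09 in the Parental clone, 7.47 and 7.39 in A, 2.43 and 2.10 in BP14A, 2.80 and 3.28 in B, and 3.64 and 3.37 in P14. All 6 line arrays were below the filter level, and the difference was −4.26 ± 0.11 (adjusted p = 2.38e-10), −4.09 at its other probe set. Nt5e, an enzyme of the cell surface that makes adenosine, read 8.62 and 7.98 in the Parental clone, 8.10 and 8.27 in A, 3.67 and 2.84 in BP14A, 5.35 and 5.74 in B, and 3.70 and 3.10 in P14. Its difference was −4.18 ± 0.18 (adjusted p = 7.29e-09) at the probe set used and −0.56 at its dimmer one. Has2, which makes hyaluronan, was the most even of the 12 largest lower genes, between 3.47 and 4.10 on the 6 line arrays and between 7.21 and 7.47 on the 4 controls.

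Hs6st2, which sulfates heparan chains, averaged 9.71 and 9.84 in the controls, 5.76 in BP14A, 7.84 in B and 5.65 in P14. Sema6a, a transmembrane guidance cue, averaged 7.73 and 7.63 in the controls, 3.29 in BP14A, 5.68 in B and 6.01 in P14. BP14A thus lay below both single-factor lines. The differences were −3.58 ± 0.14 for Has2, −3.36 ± 0.10 for Hs6st2 and −2.69 ± 0.10 for Sema6a (adjusted p from 5.29e-10 to 2.33e-09). Has2 differed by −4.65 at its other probe set. At other probe sets Hs6st2 differed by −3.0 and −0.42, and Sema6a by −0.52 and −0.85. Those at −0.42 and −0.52 did not have all 3 lines on the same side. Of 19 cell adhesion and surface genes tested, 7 were called lower and 0 higher (median −0.49), 6 on the same side. Podxl was the exception, at 4.30 and 4.98 in BP14A and P14 but 8.93 in B, level with the controls at 8.85 and 8.92. The chemokine gene Cxcl12 was on the same side by little, at 8.91 in B against 9.06 and 9.05.

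The remaining lower genes among the 12 largest were of mixed kind. Trh, a neuropeptide precursor, read 12.28 and 12.11 in the Parental clone, 12.13 and 12.29 in A, 8.74 and 8.01 in BP14A, 9.55 and 9.73 in B, and 9.28 and 9.10 in P14. It differed by −3.13 ± 0.14 (adjusted p = 6.77e-09). The neurofilament gene Nefm was lowest in P14, at 5.34, with 6.34 in BP14A, 6.56 in B and 8.73 and 8.11 in the controls. Taok3, a STE20-like kinase, differed by −2.65 ± 0.18 at the probe set used, but by −2.37, −0.83 and 0.11 at its 3 others.

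Of the other higher genes among the 12 largest, B was highest in 2. Gprc5a, an orphan receptor inducible by retinoic acid, read 3.74 and 3.93 in the Parental clone, 3.20 and 3.80 in A, 7.20 and 6.99 in BP14A, 8.72 and 8.87 in B, and 7.77 and 7.76 in P14. Its difference was 4.22 ± 0.39 (adjusted p = 4.51e-06), measured from controls below the filter level. Pdzk1, a scaffold for membrane transporters, averaged 8.04 in B, 6.10 in BP14A and 6.32 in P14, against 3.54 and 3.78.

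Arid5b and Bnc2, a chromatin-binding and a zinc-finger protein, were close in BP14A and P14 and lower in B. Arid5b averaged 6.04 and 5.35 in the controls, 9.54 in BP14A, 8.44 in B and 9.28 in P14, a difference of 3.40 ± 0.12 (adjusted p = 1.23e-09). Its other probe sets gave 3.28, 0.72 and 0.11. Bnc2 differed by 3.38 ± 0.16 (adjusted p = 1.32e-08), and by 3.08 at its other probe set. Hesx1, a homeobox gene of pluripotent cells and the anterior neural plate, and Lrrc34, a leucine-rich repeat gene, differed by 3.04 ± 0.14 and 2.96 ± 0.24 (adjusted p = 1.31e-08 and 1.43e-06) from controls below the filter level. Both had BP14A highest and B lowest, Hesx1 at 8.56 and 5.28.

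**Figure D1:**
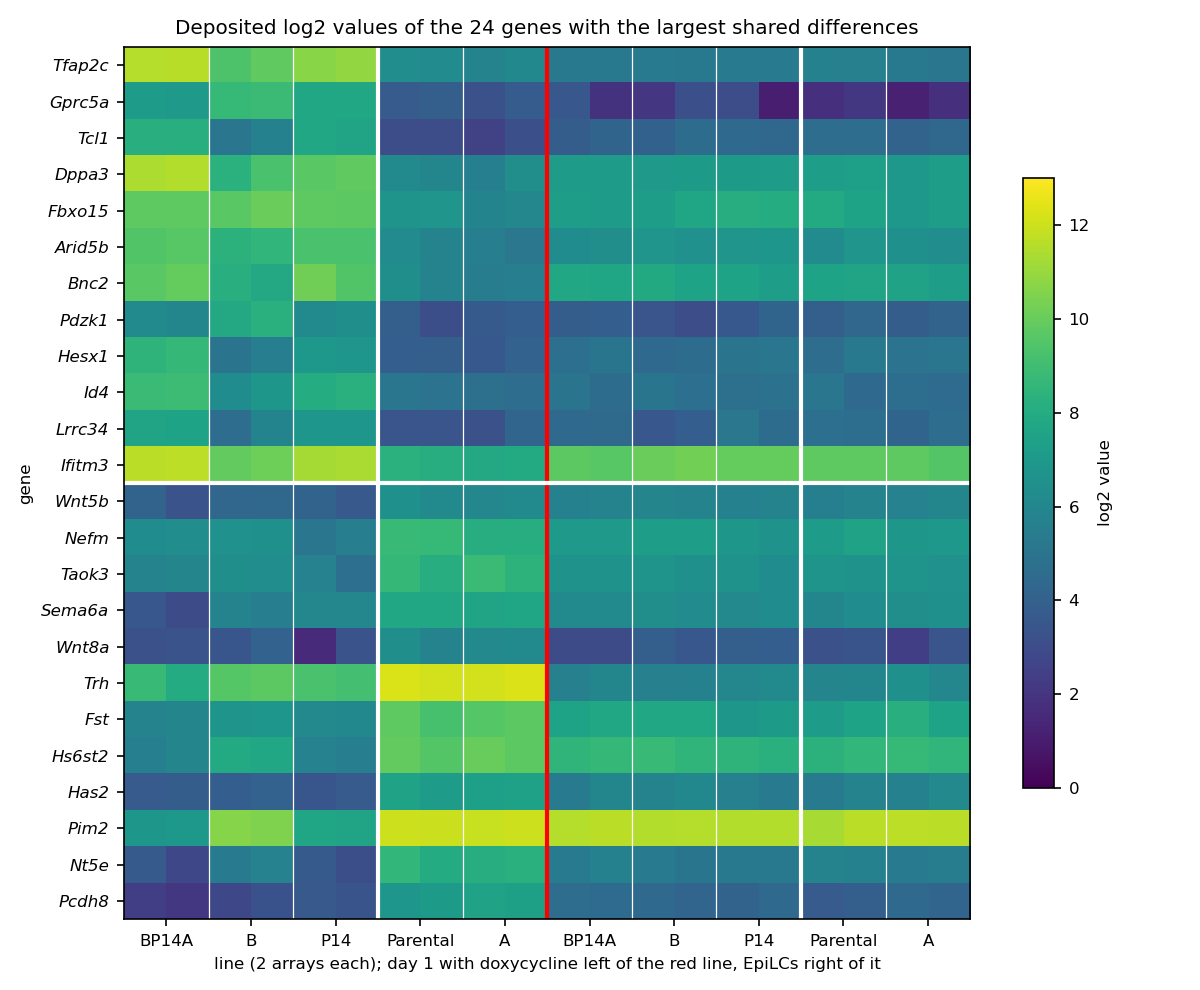
Deposited log2 values (colour, from 0 to 13) of the 12 highest and 12 lowest shared genes (rows) on all 20 arrays (columns, 2 per line), with day 1 left of the red line and EpiLCs right of it. On day 1 the 6 arrays of BP14A, B and P14 differ from the 4 arrays of the Parental clone and A in each row, and Trh reaches 12.28 in the controls; among EpiLCs the lines look alike.

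Beyond the genes named so far, the other shared genes differed by between 1.33 and 2.73 when higher and between −2.15 and −1.48 when lower. Of the 48 higher genes, 11 had both control means below the filter level, and of the 29 lower genes, 15 had at least 1 line mean below it, so the sizes of these are approximate. A second look through other probe sets was possible for 28 of the 77 genes. Of 42 such probe sets 32 put all 3 lines on the same side as the one used, 19 differed by less than 1, and 4 had the opposite sign, 3 of them for Lats2 and 1 for Taok3.

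EpiLC differences, which did not enter the rule, were read next as a description of the lines before doxycycline. They cannot show how a clone responds to aggregation. The EpiLC arrays did supply part of limma's error estimate and of the probe filter, and with the day 1 arrays fitted alone 72 of the 77 genes were shared. None of the 77 shared genes was called in the pooled EpiLC contrast by limma, where 6 had an unadjusted p under 0.05. Over all 14010 genes 5 were called (0.0357%), 4 of them Y-linked genes or Erdr1 and the other H13, and 819 had an unadjusted p under 0.05. With so few called, 0 of 77 is near the share over all genes. The EpiLC difference had a median of 0.04 in the higher genes (from −0.39 to 0.76) and −0.04 in the lower ones (from −0.54 to 0.80). Tfap2c, for example, averaged 5.68 and 5.18 in control EpiLCs and 5.26, 5.29 and 5.31 in BP14A, B and P14, an EpiLC difference of −0.14 (adjusted p = 0.903). Pim2 averaged 11.48 and 11.68 in control EpiLCs and from 11.49 to 11.60 in the others. The widest EpiLC differences, 0.80 for Stmn4 and 0.76 for Gprc5a, came with SEs that left them uncalled (adjusted p = 0.471 and 0.865). The day 1 difference minus the EpiLC difference was called for all 48 higher and all 29 lower genes, against 1.57% of all genes called higher in it and 2.02% lower, in a contrast that shares the day 1 arrays with the rule.

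**Figure D2:**
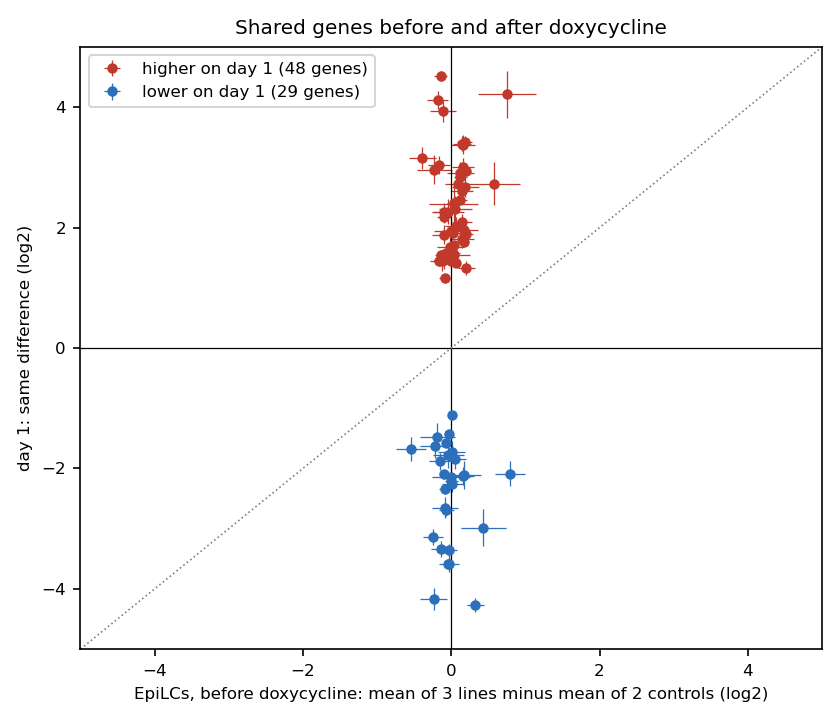
Pooled difference of each shared gene (mean of BP14A, B and P14 minus mean of the Parental clone and A, log2) in EpiLCs on the x axis and on day 1 on the y axis, with limma SEs as bars and the line of equality dotted. The 77 points spread from −4.26 to 4.52 on day 1, but lie between −0.54 and 0.80 before doxycycline.

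The control lines were compared in the same fit. None of the 77 shared genes was called between A and the Parental clone on day 1 by limma, where 17 had an unadjusted p under 0.05, and the largest difference was 0.81 for Fbxo15. Over all genes 4 were called (0.0286%), Eif2s3y, H13, Gnptab and Zfp936, all lower in A, and 928 had an unadjusted p under 0.05. With so few called, none among the 77 is near the share over all genes and shows no likeness of the controls. At the unadjusted limit, 17 of the 77 is a larger share than 928 of all genes. The day 1 arrays of both controls also entered the rule that selected the 77, so these counts are descriptions only.

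Where the difference came from was described by setting day 1 against the same lines' own EpiLCs, with the day 1 arrays again shared with the rule. Changes given for the 3 lines are changes of their mean, from which a single line can differ. Of the 48 higher genes, 36 rose in the mean of BP14A, B and P14 (4.53% of all genes did) and 0 fell. In the controls 23 of these 36 were not called, 7 fell and 6 rose as well. Tfap2c rose by 5.37 in the 3 lines and changed by 0.70 in the controls. Dppa3 rose by 2.91 in the 3 lines and fell by 1.14 in the controls, and Ifitm3, Ifitm1, Tcl1, Fbxo15, Bnc2 and Hesx1 followed that pattern. Klf2 rose in both, by 4.76 and 2.98, and Gprc5a likewise, by 5.42 and 1.96.

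A further 9 higher genes were not called in the 3 lines and fell in the controls, where 2.55% of all genes fell. Apart from Lef1 these were singled out after their values were seen. Peg3, a paternally expressed imprinted gene, averaged from 10.91 to 11.02 in EpiLCs of the 5 lines. It averaged 11.22, 11.28 and 11.11 in BP14A, B and P14 on day 1, but 9.84 and 9.75 in the Parental clone and A. Adam19, a membrane metalloprotease gene, changed by 0.01 in the 3 lines and fell by 1.88 in the controls. The cytokine gene Tnfsf11 changed by −0.28 and fell by 2.25, and Dmrt1, a transcription factor of the testis and germ line, changed by 0.30 and fell by 1.31. The others were Liph, Kndc1, Rnf125 and 1 gene known by a clone name. A change that missed the call in the 3 lines does not show that the level was kept there.

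Lower genes split in the same manner. Of 29, 17 fell in the mean of the 3 lines (3.53% of all genes did), and in 6 of these the controls rose (3.65% of all genes did). Pim2 fell by 3.17 in the 3 lines and changed by 0.38 in the controls, and Foxd3 fell by 2.25 against a change of −0.25. Pcdh8 fell by 1.47 in the mean of the 3 lines and rose by 3.12 in the controls, and Nt5e fell by 1.29 and rose by 2.65. The fall of Nt5e did not hold in B, which averaged 5.23 in EpiLCs and 5.545 on day 1. BP14A went from 5.57 to 3.255 and P14 from 5.265 to 3.40. In 8 genes, among them Nodal, Wnt8a and Nefm, only the controls were called, and they rose: Nodal by 1.46, Wnt8a by 3.04 and Nefm by 1.30. In the mean of the 3 lines Nodal and Nefm changed by −0.75 and −0.95 (limma adjusted p = 5.47e-06 and 2.69e-07), short of the limit of size only. Wnt8a changed there by −0.37 (adjusted p = 0.272). Trh and Sp8 rose in both, Trh by 3.21 in the 3 lines and 6.09 in the controls. In 2 lower and 3 higher genes neither change reached a call.

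**Figure D3:**
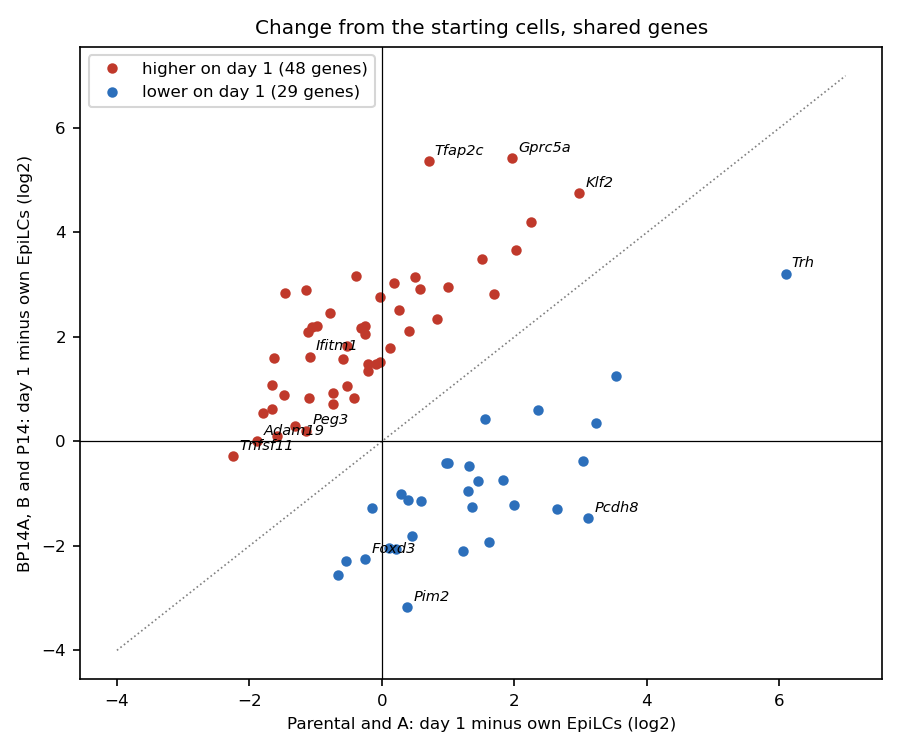
Change from own EpiLCs to day 1 (log2) of the 77 shared genes, in the mean of the Parental clone and A on the x axis and in the mean of BP14A, B and P14 on the y axis, with equality dotted. Points near the horizontal zero line left of the centre, such as Adam19 and Tnfsf11, were called in the controls only, where they fell, and Trh lies at 6.09 and 3.21.

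Line B was most often the line nearest to the controls. BP14A stood furthest from the controls in 34 of the 48 higher and 17 of the 29 lower genes, and B nearest to them in 34 and 17. The median difference from the controls among higher genes was 2.60 in BP14A, 2.16 in P14 and 1.63 in B, and among lower ones −2.50, −1.92 and −1.94. Among the 154 higher genes that were on the same side and called in the pooled contrast without being shared, 80 missed only through B, 24 only through P14 and 2 only through BP14A. Of the 177 such lower genes, 116 missed only through B, 20 only through P14 and 6 only through BP14A. With line B left out of the rule, the shared set would hold 193 higher and 287 lower genes, though fewer comparisons then had to be called.

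The 3 lines were also compared with each other on day 1. These contrasts use the arrays and line means by which the 77 genes were selected, so their calls describe the selected set and are no independent test of it. BP14A was above B in 21 of 48 higher genes and below it in 1, where 2.51% of all genes were called above and 3.96% below. P14 was above B in 11 and below it in 2 (2.51% and 4.04% of all genes). Between BP14A and P14, 5 were higher in BP14A and 0 in P14 (0.493% and 0.557% of all genes). Of the lower genes, 8 were lower in BP14A than in B, 6 lower in P14 than in B and 4 lower in BP14A than in P14, with 1, 3 and 1 the other way. In 25 higher and 14 lower genes no pair of lines was called different, which does not show that they were equal.

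The 6 shared genes with the widest range over the 3 lines were Pim2, Hesx1, Slco4c1, Tcl1, Sema6a and Dppa3, with ranges from 2.68 to 3.65. Pim2 was lower in BP14A and P14 than in B by 3.65 and 2.94 (adjusted p = 3.4e-10 and 2e-09). Hesx1 was higher in BP14A than in B by 3.27 (adjusted p = 4.6e-07) and than in P14 by 1.67 (adjusted p = 0.000929). Slco4c1, an organic anion transporter gene, averaged 6.74 in BP14A but 4.00 in B and 4.39 in P14, with controls at 2.91 and 2.65, below the filter level. At the other end, A4galt ranged over 0.10, Fbxo15 over 0.12 and Peg3 and Mcrip2 over 0.17, all but Fbxo15 named after their values were seen. Line B was furthest from the controls in 9 higher genes, Gprc5a, Pdzk1 and Ifitm1 among them, and in 5 lower ones, Nodal included. Nodal was lower in B than in BP14A by 1.23 (adjusted p = 3.34e-05) and than in P14 by 1.04 (adjusted p = 0.000129), and Ifitm1 was higher in B than in P14 by 1.44 (adjusted p = 5.39e-06).

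**Figure D4:**
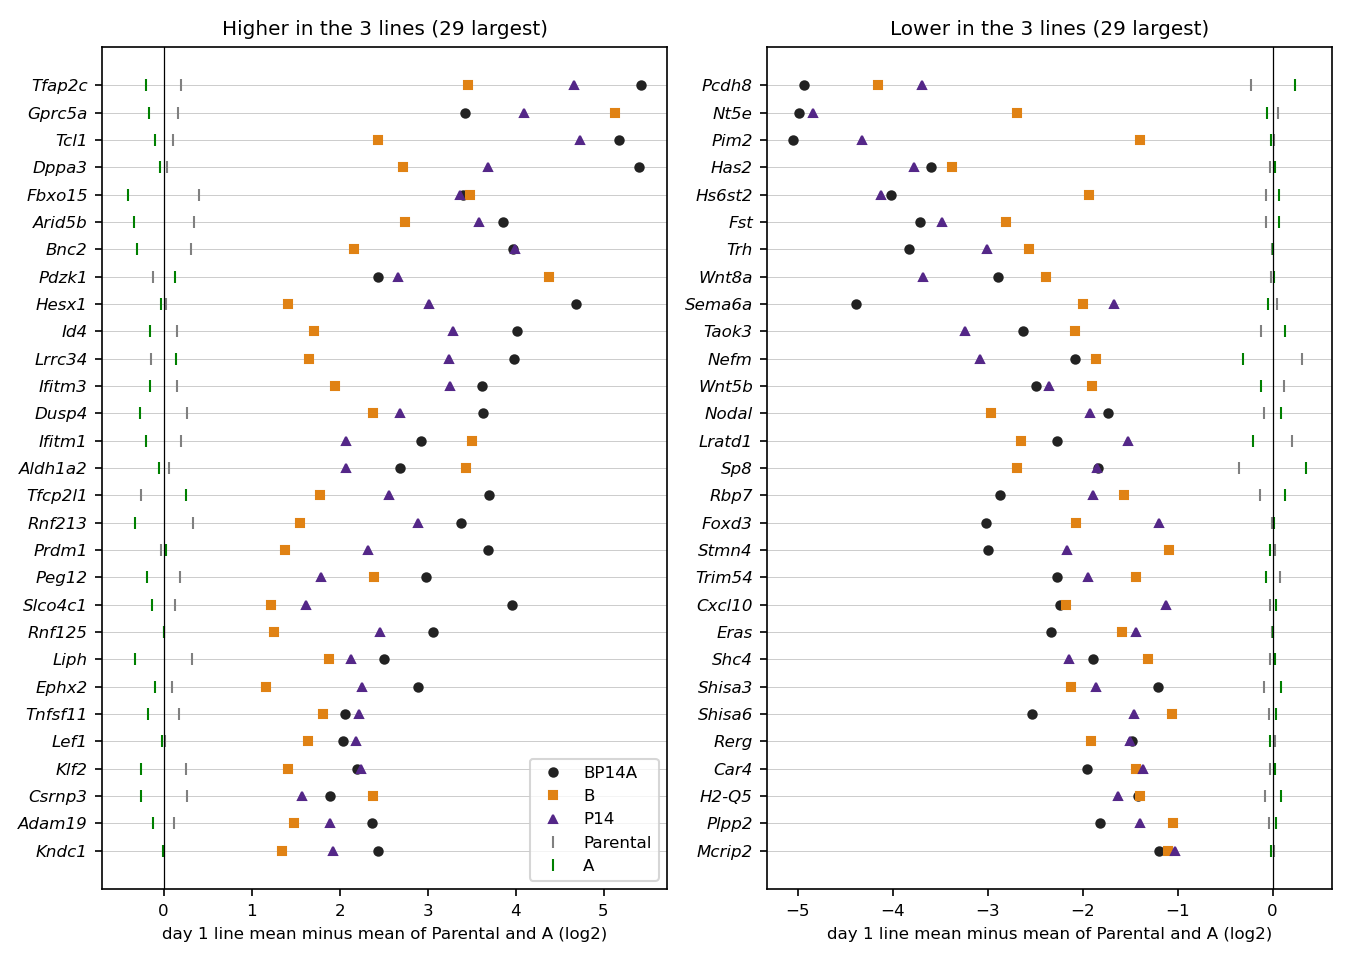
Day 1 mean of each line minus the mean of the Parental clone and A (x axis, log2) for 29 higher shared genes (left) and the 29 lower ones (right), with circles for BP14A, squares for B, triangles for P14 and ticks for the 2 controls. B (squares) is nearest to the controls in most rows, but furthest out for Gprc5a, Pdzk1, Ifitm1 and Nodal.

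Genes called in the pooled contrast without all 3 lines on the same side numbered 35 higher and 69 lower, apart from 5 lower calls among the genes left out. They are not members. In Podxl and Thy1, for example, B lay at or within the control level, while in Tdgf1 B lay furthest from it.

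Lists for other tissues and for general processes were read in the same contrast. Of 13 neural and anterior ectoderm genes, 2 were called higher, Hesx1 and Lhx5, and 5 lower (median −0.08), 3 of the latter on the same side. Nes, an intermediate filament of neural progenitors, was one of these, at 6.30, 5.37 and 7.12 in BP14A, B and P14 against 7.87 and 7.90. Sox1 was another called lower gene but stayed at 5.35 in B, between the controls. Among 13 primitive streak and mesoderm genes 3 were called lower, Mixl1, Eomes and Fgf8, and 0 higher (median −0.08). Of 14 trophectoderm and surface ectoderm genes 3 were called lower, Eomes and the keratin genes Krt8 and Krt18, and 0 higher (median 0.03). Endoderm genes had 0 of 10 called (median −0.02) and fibroblast or feeder genes 1 of 8, Thy1, lower (median 0.03).

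In the same contrast 0 of 19 cell cycle and replication genes were called (median −0.02), 0 of 11 in the Myc and Max network (median 0.08) and 0 of 16 histone modifiers (median 0.00). The p53 and stress list had Atf3, at −1.15, as its 1 call among 14 (median −0.23). Hypoxia and glycolysis had 3 calls among 16 (median −0.06): Epas1 and Ndrg1 were higher by 3.53 and 2.11, and Ldha differed by −1.15, each on the same side but none shared. No gene of the 7 listed for the 2-cell-like state was tested. These shares stand beside 1.69% higher and 2.0% lower over all genes.

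**Figure D5:**
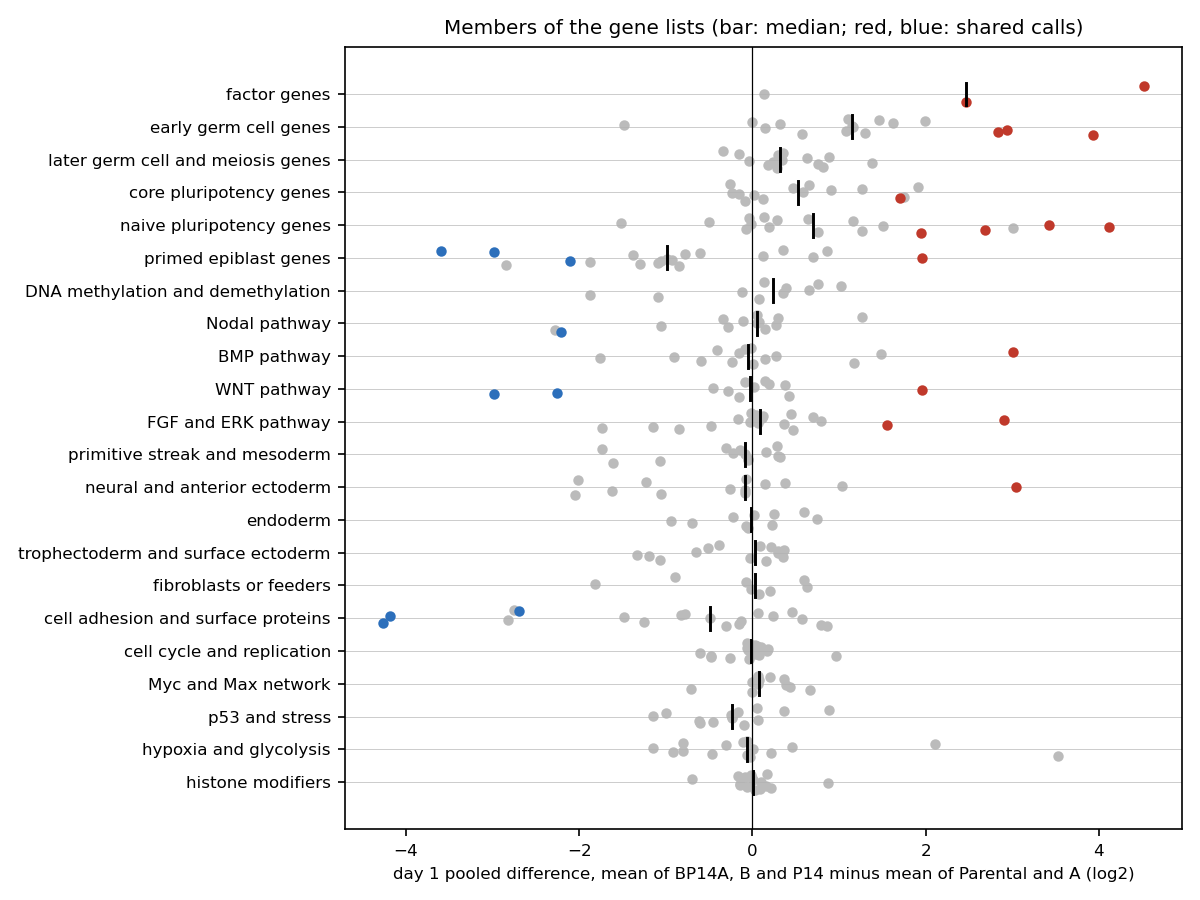
Day 1 pooled difference (log2, x axis) of each tested member of the gene lists (rows), with the list median as a black bar, higher shared genes in red, lower ones in blue and all others in grey. The medians run from 2.46 for the factor genes and 1.16 for early germ cell genes to −0.99 for primed epiblast genes, and those of cell cycle genes and histone modifiers lie within 0.02 of zero.

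Markers fixed for the cell types were also summed on the linear scale and returned to log2. Epiblast markers (4 genes) summed to between 11.15 and 13.51 on the 6 line arrays and between 13.91 and 14.01 on the controls. Early germ cell markers (4 on the array) summed to between 10.22 and 12.68, against 7.93 to 8.24. Of these, Dppa3, Prdm1 and Tfap2c are shared genes, so the selection largely fixed that the sums lay apart. Dnd1, the remaining marker, averaged 7.45, 7.01 and 7.56 in BP14A, B and P14 against 6.74 and 6.80 in the controls. All 4 epiblast genes were bright in the controls, from 10.59 for Fgf5 to 13.22 for Dnmt3b, so these aggregates of EpiLCs held the defining epiblast markers. Neural markers summed to between 6.67 and 7.47 against 8.16 to 8.35. In B only Nes lay below both controls, at 5.37 against 7.87 and 7.90. Pax6 averaged 5.77 in B against 5.22 and 4.94, and Sox1 5.35 against 5.56 and 5.15. In BP14A and P14 each of these genes lay below both controls. Fibroblast markers summed to between 7.46 and 8.70 against 8.41 to 8.58, with Col1a1 and Postn below the filter level in every day 1 group. Endoderm markers lay between 6.34 and 6.59 against 6.28 to 6.79, and trophectoderm markers between 6.38 and 6.99 against 6.37 to 6.71, with Cdx2, Elf5 and Gata3 below the filter level. The part of these other cell types in the shared differences was not tested, and in bulk aggregates fewer cells of a type and less RNA per cell cannot be told apart.

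The promoters of the shared genes were searched for the binding motifs of the 3 factors' families, because these genes were chosen for moving together. Windows of 300 bases around the start (250 before, 50 after) came from RefSeq (GRCm38.p6), for 35 of the 48 higher and 20 of the 29 lower genes. The letters GCCNNNGGC (AP-2) were found in 17.1% of the higher and 30.0% of the lower genes, against 27.9% of 11240 genes tested. AGNGAAAG (Blimp1) was found in 5 of 35 (14.3%) and 4 of 20, against 9.48%. GGTCTCTAA (Prdm14) was found in 0 of both, against 0.267%. Both strands were searched, and these shares are descriptions of small sets that carry no test. Shown are the windows of the 2 highest and the 2 lowest named genes with an entry, in lower case with matches in capitals. Tcl1 and Arid5b hold no match, Pcdh8 holds 1 for Blimp1 just after the start, and Nt5e holds 2 for AP-2 before it.
Tcl1 (GRCm38.p6, chr12:105222688-105222987, minus strand): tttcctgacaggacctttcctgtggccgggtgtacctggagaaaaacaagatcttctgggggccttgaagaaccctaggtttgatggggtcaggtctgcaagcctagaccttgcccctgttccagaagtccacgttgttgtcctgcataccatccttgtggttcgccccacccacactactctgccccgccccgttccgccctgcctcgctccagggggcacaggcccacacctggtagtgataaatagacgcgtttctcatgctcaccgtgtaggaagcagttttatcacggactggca
Arid5b (GRCm38.p6, chr10:68278677-68278976, minus strand): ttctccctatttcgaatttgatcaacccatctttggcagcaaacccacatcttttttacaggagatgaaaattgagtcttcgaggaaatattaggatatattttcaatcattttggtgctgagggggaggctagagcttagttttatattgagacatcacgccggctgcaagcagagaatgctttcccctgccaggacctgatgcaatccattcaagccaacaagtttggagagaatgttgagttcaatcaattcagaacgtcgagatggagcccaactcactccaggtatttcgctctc
Pcdh8 (GRCm38.p6, chr14:79771263-79771562, minus strand): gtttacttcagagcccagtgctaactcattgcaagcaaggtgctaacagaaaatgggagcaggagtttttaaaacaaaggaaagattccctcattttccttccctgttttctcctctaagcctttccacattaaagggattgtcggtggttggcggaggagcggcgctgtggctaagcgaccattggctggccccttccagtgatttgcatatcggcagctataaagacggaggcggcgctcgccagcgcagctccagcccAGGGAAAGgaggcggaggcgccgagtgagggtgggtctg
Nt5e (GRCm38.p6, chr9:88327359-88327658, plus strand): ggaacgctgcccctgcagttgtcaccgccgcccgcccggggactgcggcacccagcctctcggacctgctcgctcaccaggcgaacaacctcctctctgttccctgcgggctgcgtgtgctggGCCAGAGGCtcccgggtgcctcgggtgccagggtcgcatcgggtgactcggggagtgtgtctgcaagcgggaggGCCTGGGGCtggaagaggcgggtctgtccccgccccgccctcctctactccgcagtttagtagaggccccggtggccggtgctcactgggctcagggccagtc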

How the data were processed

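RNA from 20 samples was labelled by the one-cycle protocol and hybridised to Affymetrix arrays, per the labels' protocols. The deposited log2 values were used as given. The method by which the authors normalized them, not given in the sources used here, could shift any value. Base 2 was inferred from their range. Both arrays of each group are biological duplicates by the series' design text. Nothing else says that they came from separate cultures, and their number alone, 2 per group, limits the precision.

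Of 45101 probe sets, 64 controls and those naming no gene (9211) or several genes (932) were left out. Probe sets were kept if any group mean reached 3.95, the 40th percentile of all values, and the brightest stood for each gene, which left 14010 genes. Means of 10 groups were fitted in limma 3.58.1 (R 4.3.3), leaving 10 residual degrees of freedom, and p-values were adjusted by Benjamini-Hochberg over all genes. Calls needed an adjusted p under 0.05 and a difference of at least 1. The procedure was tested on simulated data.

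The members and the gene lists were chosen with earlier results of these data known. Named are the 12 highest and 12 lowest shared genes, shared members of the lists, the factor genes and the 6 shared genes with the widest range over the 3 lines. Clone names and the 8 genes left out are not named as members. The lists covered the pathways, cell types and processes whose counts the report gives. Alternatives left out the filter or a line, raised the filter, averaged probe sets, centred arrays, fitted day 1 alone, used treat or a block, or left out 1 array.

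The deviations of same-numbered replicates correlated over 0.1 in 6 of 45 pairs of groups (range −0.06 to 0.20, median 0.02), and in 3 of the 10 pairs within day 1 (median 0.08), so the numbers were not taken to pair samples.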

Additional observations from a re-analysis of the deposited data

Results flagged for a closer look

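Of 72 groups of 4 or 6 day 1 arrays of the named genes, 3 held an array far from the others, and chance alone gives about 1 in 20. Tcl1 was at 2.57 on 1 of the 4 control arrays, in line A, with the other 3 between 3.06 and 3.16, all below the filter level. Fbxo15 was at 10.01 on 1 of the 2 B arrays, with the other 5 arrays between 9.68 and 9.78. Wnt8a was at 1.61 on 1 P14 array, where the other read 3.35. None of these readings changes on which side the gene lies.

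The day 1 difference exceeded the EpiLC difference, by limma's test of the interaction, in all 48 higher and all 29 lower shared genes, against 1.57% and 2.02% of all genes. The selection by day 1 differences largely fixed this count, which is given as a description. Likewise as a description of the selected set, 23 higher and 15 lower genes had a called difference between at least 1 pair of BP14A, B and P14, such as Pim2, at 6.91 in BP14A, 10.57 in B and 7.63 in P14.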

How the results depend on the processing

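No called difference of the 36 named genes reversed direction under the settings run, though 1 other probe set of Taok3, like 3 of Lats2, had the opposite sign. Without line B, 367 higher and 460 lower genes were called on the same side, and 193 and 287 were shared, a check added after the data were seen. Without line P14, 55 lower genes were shared, and with line A as the only control 85 higher and 45 lower ones. With 5 line means as samples the calls came to 0 higher and 1 lower, and with line as a random block to 102 and 84. In the first of these, 34 of the 36 named genes lost their call. The treat test against 0.5 gave 53 calls between BP14A and P14 instead of 147, and 1771 changes from EpiLC in the 3 lines instead of 1129. The 4 calls between A and the Parental clone became 1 with arrays centred or under treat, and 2 with probe sets averaged or day 1 fitted alone. Leaving out 1 array gave 1 to 12 such calls, 5 to 8 pooled calls in EpiLCs, 38 to 51 higher and 22 to 29 lower shared genes. Of the 77 shared genes, 67 stayed shared with probe sets averaged (Fgfr2, Taok3, Sema6a and Slco4c1 did not), 72 on day 1 alone, 46 under treat and 71 with centred arrays. A replicate block kept all 77, and changed no call of a named gene, although the numbers are not known to pair samples. Leaving out a line leaves fewer single comparisons to be called, which by itself favours a larger shared set. Beyond that, the cause of these shifts was not tested. Signals near the filter level limit the size of 11 higher and 15 lower shared genes, and in 2 of the higher ones a line mean also lay below it, so that their side rests on dim signal as well.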
